A study of Rattus norvegicus with 22 samples.

Results

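The fructose uptake and catabolism genes described here are Slc2a5, Khk, Tkfc and Sord, 4 of the 14971 genes listed by symbol for rat liver. They were chosen as genes of fructose handling because Slc2a5 and Tkfc were higher in HepV_O3 than in Sham_O3 livers, so that comparison is given for all 4 as a description, with no test. All 4 passed the filter on low values that 12424 genes passed. The livers came from 22 rats, each operated on at 12 weeks of age, left to recover for 5 to 6 days, and then exposed for 4 hours on 1 or 2 days before necropsy within 2 hours. The 4 groups were HepV_O3 (hepatic vagotomy, the cutting of the vagal branch to the liver, then ozone at 1 ppm, n = 5), Sham_O3 (sham surgery, then ozone, n = 6), HepV_Air (hepatic vagotomy, then air, n = 6) and Sham_Air (sham surgery, then air, n = 5). All rats had surgery and standard chow. The labels used here give neither strain nor sex, and do not say which rats had 1 and which had 2 days of exposure.

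Fructose enters cells through the facilitative carriers GLUT5, encoded by Slc2a5 and best known from the small intestine, and GLUT2, encoded by Slc2a2 and the main hexose carrier of hepatocytes. Ketohexokinase (Khk) phosphorylates fructose, the product is split, and triokinase (Tkfc) phosphorylates the glyceraldehyde that is released, so that the carbon joins glycolysis below its main control point. Liver can also make fructose from glucose by the polyol pathway, in which aldose reductase (Akr1b1) forms sorbitol and sorbitol dehydrogenase (Sord) oxidises it. In rodent liver, genes of this route are known targets of the sugar-responsive factor ChREBP, encoded by Mlxipl.

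The promoter windows of Slc2a5 and Tkfc are shown because these genes had their lowest group mean in the same group, Sham_O3. They are the 250 bases before the annotated start, 5′ to 3′ on the gene's strand, from RefSeq on build GRCr8, which is not the build of the counts (rn6). For Slc2a5 the stretch is chr5:165865929-165866178 on the plus strand, and for Tkfc it is chr1:216677658-216677907 on the minus strand. Capitals mark CCAAT, which here lies on the other strand, in Slc2a5 and CCGCCC, the core of a GC box, in Tkfc.
Slc2a5: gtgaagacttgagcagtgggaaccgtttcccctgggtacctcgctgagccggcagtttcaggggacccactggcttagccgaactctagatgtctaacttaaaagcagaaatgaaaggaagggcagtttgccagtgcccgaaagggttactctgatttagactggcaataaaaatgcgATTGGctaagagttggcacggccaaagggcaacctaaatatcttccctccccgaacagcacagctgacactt
Tkfc: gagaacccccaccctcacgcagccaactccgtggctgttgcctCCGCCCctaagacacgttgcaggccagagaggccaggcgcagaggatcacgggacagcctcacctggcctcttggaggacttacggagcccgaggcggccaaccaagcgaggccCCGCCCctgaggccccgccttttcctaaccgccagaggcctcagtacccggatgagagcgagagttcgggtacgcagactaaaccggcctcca
The search covered 300 bases per gene, 250 before and 50 after the start, on both strands, with 7 motifs that do not contain one another, in all 33469 windows of the table. The Slc2a5 window held 1 CCAAT, starting at -72, and no CCGCCC. The Tkfc window held 2 CCGCCC, starting at -207 and -93, and no CCAAT. Khk had both, 1 CCAAT and 2 CCGCCC, and Sord had 2 CCGCCC. Such letters are common, since 37.5% of all windows held CCAAT and 33.1% held CCGCCC. None of the 4 windows held CACGTG (E-box, in 6.42% of windows), TATAAA (core of the TATA box, 14.2%), TTCNNNGAA (STAT factors, 8.87%), TGACGTCA (CREB, 1.83%) or GTAAACA (FOXO factors, 3.78%). G and C made up 52.0% of the Slc2a5 window and 65.7% of the Tkfc window. The Khk and Sord windows held 60.0% and 64.7%.

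The libraries held between 14098863 and 21141337 gene reads. Values are normalised counts, the submitters' read count divided by 1 size factor per library. They are not divided by gene length, so levels are compared between groups and not between genes. The listed 5.8S ribosomal RNA set 4 libraries apart. It was 38.1 in HepV_O3 replicate 1, 72.6 in Sham_O3 replicate 3, and 180 and 89.4 in HepV_Air replicates 1 and 5, against at least 342 in the other 18 libraries. For several results that rest on these 4, values without them are also given. All 8 hepatocyte markers examined, Alb and Hnf4a among them, passed the filter on low values, and none was at 0 throughout.

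Slc2a5, the fructose carrier, had its lowest values in Sham_O3 livers. In HepV_O3 livers it had 107, 94.1, 82.8, 72.3 and 102 normalised counts, against a lowest of 25.4, a median of 37.1 and a highest of 47.9 in Sham_O3 livers. Every HepV_O3 liver was above every Sham_O3 liver. The means were 91.5 ± 14.1 (SD, n = 5) in HepV_O3 and 37.1 ± 9.08 (SD, n = 6) in Sham_O3, a ratio of 2.46 as fitted on the log2(count + 1) scale. Over all genes tested 1.18% had every HepV_O3 value above every Sham_O3 value, and since Slc2a5 was chosen on this contrast nothing is read from that. In bulk liver, fewer cells of a type and less RNA per cell cannot be told apart.

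In air, Slc2a5 had a lowest of 59.5, a median of 88.8 and a highest of 122 normalised counts in HepV_Air livers, against 58.9, 53.5, 87.3, 50.2 and 71.8 in Sham_Air livers. The ranges overlapped. The difference of HepV_Air from Sham_Air was 0.43 ± 0.19 (log2, SE), with an unadjusted limma p of 0.0348 and an adjusted p of 0.9995, so it was not called. This is the only comparison that shares no library with the one used for the choice, and in it 0 of 12424 genes (0%) were called at an adjusted p under 0.05. At an unadjusted p under 0.05 limma gave 387 genes, and edgeR and DESeq2 called 0 genes each after adjustment.

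In sham-operated rats Slc2a5 was lower with ozone. The 6 Sham_O3 livers, from 25.4 to 47.9, were all below the 5 Sham_Air livers, from 50.2 to 87.3. The change was -0.78 ± 0.19 (log2, SE, limma adjusted p = 0.00375), and 13.8% of all genes tested were called lower there. The Sham_O3 libraries took part in the choice of Slc2a5 and Tkfc, so these p-values are not independent of the choice. After vagotomy the ranges overlapped, 72.3 to 107 in HepV_O3 and 59.5 to 122 in HepV_Air, and the difference was 0.09 ± 0.19 with an adjusted p of 0.806. Its 95% interval was -0.31 to 0.48. The difference between the ozone changes was not tested, because it contains the contrast that chose the genes.

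In descending order the group means of Slc2a5 were HepV_O3, HepV_Air, Sham_Air and Sham_O3. The upper 3 groups overlap their neighbours, and Sham_O3 alone lies apart. Slc2a5 is a low-count gene here, with 27 to 123 reads per library, which gives a counting error of 9.02% to 19.2% per value, covering counting error only. Among markers of other liver cells, 2 of 8 Kupffer cell and macrophage markers and 1 of 2 neutrophil and monocyte markers tested were called lower in Sham_O3 than in Sham_Air, where 13.8% of all genes were. Of 6 stellate cell markers 1 was called higher, as were 2 of 8 hepatocyte markers, where 14.6% of all genes were called higher. Of 4 cholangiocyte and 4 sinusoidal endothelium markers 0 were called, where 28.4% of all genes were called in either direction. The summed macrophage markers ranged from 5307 to 7152 in Sham_O3 and from 5776 to 7500 in Sham_Air. The summed neutrophil and monocyte markers ranged from 27.3 to 45.5 in Sham_O3 and from 50.2 to 90.3 in Sham_Air, without overlap. This sum covers the 4 of 6 listed markers that had values, and none of these 4 was at 0 in all libraries. The part of these cell types in the Slc2a5 result was not tested.

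**Figure D1:**
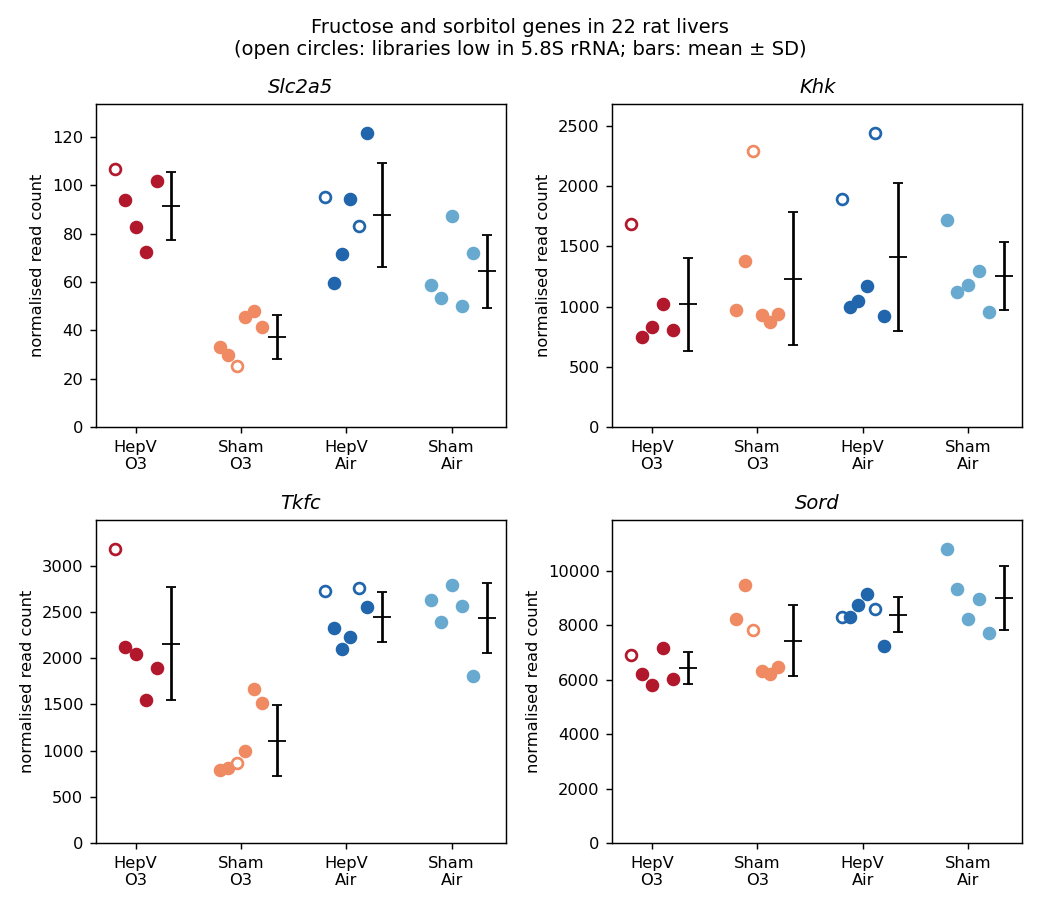
Normalised read counts of the 4 genes (vertical axes from 0) in each liver of the 4 groups; points are libraries, open circles are the 4 libraries low in 5.8S ribosomal RNA, and bars are the mean ± SD. Slc2a5 lies between 25.4 and 47.9 in Sham_O3 and above 50 in every other liver, whereas the highest Khk values of 3 groups are open circles.

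Tkfc, the triokinase that takes up the glyceraldehyde from fructose, was also lowest in Sham_O3. It had 3174, 2124, 2046, 1548 and 1890 normalised counts in HepV_O3 livers, against a lowest of 796, a median of 931 and a highest of 1671 in Sham_O3 livers. The groups overlapped in 1 pair of neighbours, since HepV_O3 replicate 4 (1548) lay below Sham_O3 replicate 5 (1671). The means were 2156 ± 610 (SD, n = 5) in HepV_O3 and 1110 ± 385 (SD, n = 6) in Sham_O3, a difference of 0.98 ± 0.19 (log2, SE). Without the 4 libraries low in 5.8S it was 0.77, and the mean in HepV_O3 was then 1902 ± 255 (SD, n = 4).

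In sham-operated rats Tkfc fell with ozone. Sham_O3 livers reached at most 1671, against 2625, 2393, 2786, 2566 and 1803 in the Sham_Air livers, and the ranges did not overlap. The change was -1.18 ± 0.19 (log2, SE, limma adjusted p = 5.77e-05), so the level in Sham_O3 was 0.44 of that in Sham_Air. Both Slc2a5 and Tkfc were therefore among the genes whose Sham_O3 values all lay below the Sham_Air values, 7.21% of the genes tested. Since the Sham_O3 values took part in the choice of both, nothing is read from that share. Within Sham_O3 the Tkfc values split into 4 livers from 796 to 999 and 2 livers at 1516 and 1671. The labels give no feature of those 2 livers.

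After vagotomy Tkfc was 1548 to 3174 in HepV_O3, against a lowest of 2099, a median of 2435 and a highest of 2756 in HepV_Air. The change was -0.22 ± 0.19 (log2, SE, limma adjusted p = 0.468), with a 95% interval of -0.61 to 0.17. In air the surgery groups lay together, at 2446 ± 271 (SD, n = 6) in HepV_Air and 2435 ± 380 (SD, n = 5) in Sham_Air, a difference of 0.02 ± 0.19 (adjusted p = 0.9995). Its interval, -0.37 to 0.40, leaves room for a change of either sign. Of the group means Sham_O3 is the lowest, and the ranges of the other 3 overlap.

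Tkfc overlaps its neighbour Ddb1, a DNA repair gene on the opposite strand, by 6 bases at its start in the RefSeq annotation, and whether counting used strand is not given in the sources used here. Ddb1 averaged 2355 ± 248 (SD, n = 6) in Sham_O3 and 2648 ± 132 (SD, n = 5) in Sham_Air. Its change was -0.17 ± 0.08 (log2, SE, limma adjusted p = 0.105), which passed the threshold when columns were rescaled to equal totals (-0.28, adjusted p = 0.0249) or equal upper quartiles (-0.24, adjusted p = 0.0164). Its change after vagotomy was -0.06 ± 0.08.

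**Figure D2:**
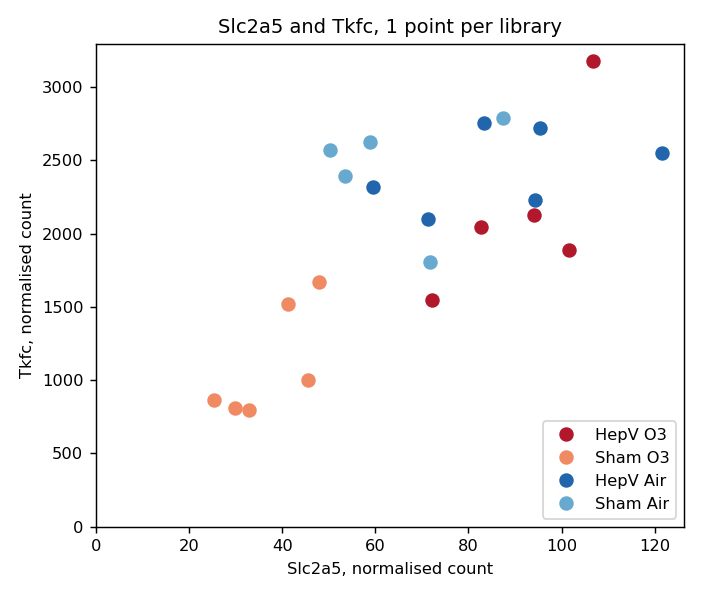
Normalised count of Tkfc (vertical axis) against that of Slc2a5 (horizontal axis), 1 point per library, coloured by group. All 6 Sham_O3 livers lie in the lower left, below 48 for Slc2a5 and at or below 1671 for Tkfc, apart from the other 16 livers.

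Khk, the ketohexokinase that commits fructose to breakdown, showed no called change, and it was high in the 4 libraries low in 5.8S. It had 1682, 744, 832, 1023 and 803 normalised counts in HepV_O3 livers, against a lowest of 871, a median of 955 and a highest of 2291 in Sham_O3 livers. In air it had a lowest of 922, a median of 1109 and a highest of 2440 in HepV_Air livers, against 1716, 1119, 1180, 1296 and 959 in Sham_Air livers. All pairs of groups overlapped. The 4 libraries low in 5.8S held 1682 to 2440, the highest value of HepV_O3 and of Sham_O3 and the highest 2 of HepV_Air, while the other 18 libraries held 744 to 1716.

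The Khk difference was -0.25 ± 0.27 (log2, SE) between HepV_O3 and Sham_O3. The ozone changes were -0.44 ± 0.27 after vagotomy (limma adjusted p = 0.274) and -0.09 ± 0.27 after sham surgery (adjusted p = 0.826). Between HepV_Air and Sham_Air it was 0.10 ± 0.27 (adjusted p = 0.9995). The 95% intervals, from -0.997 to 0.12 for ozone after vagotomy and from -0.65 to 0.46 after sham surgery, include changes as large as some of those called for other genes. Without the 4 libraries low in 5.8S the ozone changes were -0.29 in each surgery group (adjusted p = 0.209 after vagotomy and 0.110 after sham surgery), and the difference of HepV_Air from Sham_Air was -0.26 (adjusted p = 0.826). Leaving them out narrowed the SD in HepV_O3 to 121 around a mean of 851 (n = 4) and in Sham_O3 to 204 around a mean of 1018 (n = 5). What set those libraries apart, and its part in the Khk values, was not tested.

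**Figure D3:**
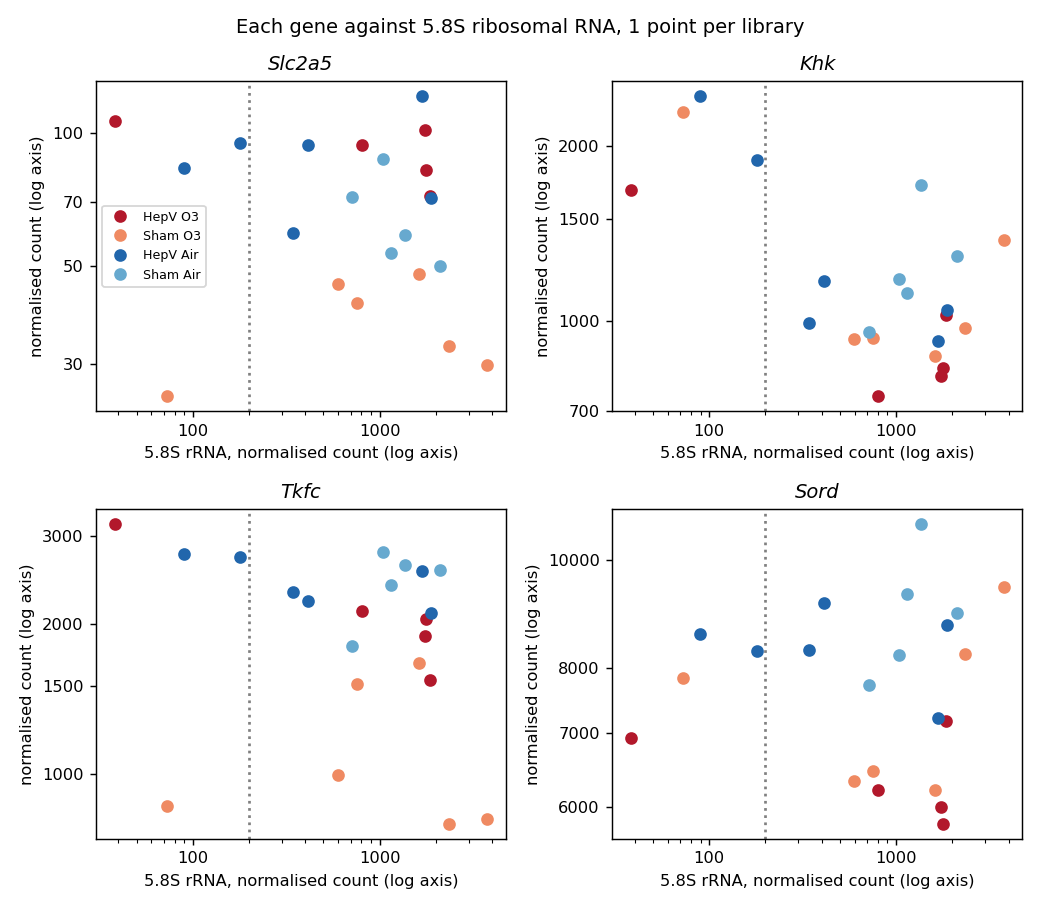
Normalised count of each gene (vertical axes, log) against that of 5.8S ribosomal RNA (horizontal axes, log), 1 point per library, with the dotted line at 200. Khk is 1682 to 2440 in the 4 libraries left of the line and 744 to 1716 to its right, whereas Slc2a5 covers 25.4 to 107 on the left and 29.8 to 122 on the right.

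Sord, the sorbitol dehydrogenase that makes fructose in the polyol pathway, was lower with ozone in vagotomised rats, where Slc2a5 and Tkfc were not called. It had 6916, 6213, 5799, 7167 and 6009 normalised counts in HepV_O3 livers, against a lowest of 7221, a median of 8444 and a highest of 9156 in HepV_Air livers. Every HepV_O3 liver was below every HepV_Air liver, as for 5.21% of the genes tested. The change was -0.39 ± 0.11 (log2, SE, limma adjusted p = 0.0147), where 21.1% of genes were called in either direction and 9.63% were called lower. The HepV_O3 libraries also took part in choosing the gene set. Leaving out HepV_O3 replicate 3 gave -0.35 with an adjusted p of 0.0505.

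In sham-operated rats Sord had a lowest of 6217, a median of 7149 and a highest of 9458 in Sham_O3 livers, against 10774, 9323, 8219, 8962 and 7719 in Sham_Air livers. The groups overlapped. The change was -0.29 ± 0.11 (log2, SE, limma adjusted p = 0.0567), just short of the threshold, with a 95% interval of -0.52 to -0.06, where 28.4% of all genes were called. The difference was called without the 4 libraries low in 5.8S (-0.31, adjusted p = 0.0489), with DESeq2 (-0.28, adjusted p = 0.0439) and with columns rescaled to equal totals (-0.39, adjusted p = 0.00518). It was also called when Sham_Air replicate 5 (adjusted p = 0.0368), Sham_O3 replicate 1 (0.0454) or Sham_O3 replicate 2 (0.0140) was left out. In air the difference of HepV_Air from Sham_Air was -0.10 ± 0.11 (adjusted p = 0.9995).

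Between HepV_O3 and Sham_O3 the Sord means were 6421 ± 592 (SD, n = 5) and 7424 ± 1306 (SD, n = 6), a difference of -0.20 ± 0.11 (log2, SE) with overlapping ranges. In descending order its group means were Sham_Air, HepV_Air, Sham_O3 and HepV_O3, and each group overlapped the next. Sham_O3 livers again fell into 2 parts, with 3 livers from 7830 to 9458 and 3 from 6217 to 6468. The livers with the higher Sord were replicates 1, 2 and 3, which had the lowest 3 values of Slc2a5 and Tkfc in that group. This was seen in the values and was not tested.

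**Figure D4:**
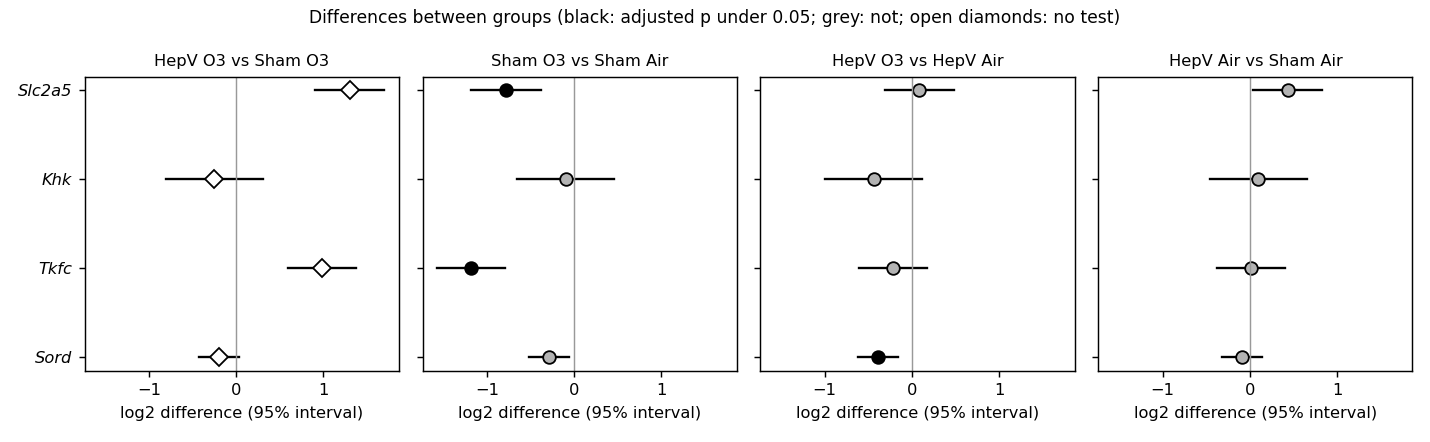
Differences between groups on the log2(count + 1) scale (horizontal axes) with 95% intervals for the 4 genes; black points passed an adjusted p under 0.05, grey points did not, and open diamonds mark the comparison with no test. Slc2a5 and Tkfc are black at -0.78 and -1.18 in Sham_O3 against Sham_Air, and Sord at -0.39 in HepV_O3 against HepV_Air.

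Likeness was ranked over the 9647 genes that averaged 50 or more normalised counts, by Pearson r of log2 values over the 22 libraries, as a description. These r include the differences between groups, so the r of deviations from the group means is given beside each. For Slc2a5 the most alike genes were Ldlrad4 (r = 0.85, deviations 0.61), Gys2 (0.83, deviations 0.51) and Timeless (0.83, deviations 0.57). Tkfc itself ranked 5 for Slc2a5, with r = 0.79 and 0.51 for the deviations, whereas Slc2a5 ranked 44 for Tkfc. Both were chosen for a difference between HepV_O3 and Sham_O3, which raises their r, so nothing is read from these ranks. Gys2, for example, averaged 1627 ± 217 in HepV_O3, 1082 ± 215 in Sham_O3, 1453 ± 74.4 in HepV_Air and 1327 ± 137 in Sham_Air (SD, n = 5, 6, 6 and 5).

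For Tkfc the most alike genes were RGD1565222 (r = 0.88, deviations 0.56), Klhl8 (0.87, deviations 0.66) and Pklr (0.87, deviations 0.71). Pklr, liver pyruvate kinase, averaged 1275 ± 467 in HepV_O3, 809 ± 177 in Sham_O3, 2342 ± 633 in HepV_Air and 1867 ± 345 in Sham_Air (SD, same n). Its HepV_O3 mean lay well below HepV_Air, where Tkfc showed no called difference. For Khk they included Rpl41, which encodes a ribosomal protein (r = 0.97, deviations 0.98), and LOC680406 (0.97, deviations 0.97). Rpl41 had a median of 1883 and a highest of 4391 in HepV_O3, and a median of 2115 and a highest of 7180 in Sham_O3. For Sord they were Igsf5 (r = 0.91, deviations 0.80), Sec22a (0.90, deviations 0.77) and Yipf2 (0.89, deviations 0.78). Within groups Sord and Slc2a5 deviated in opposite directions (r = -0.60 for the deviations), and Sord and Khk in the same direction (0.53).

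The other genes of the fructose route did not fall with Slc2a5 and Tkfc. Of 9 tested, 4 rose and 0 fell with ozone in each surgery group, where 11.4% of all genes tested rose after vagotomy and 14.6% after sham surgery. The list's median change was 0.29 after vagotomy and 0.35 after sham surgery, against -0.01 and 0.01 over all genes tested. The 4 in each case were the hexose carriers Slc2a2 and Slc2a9, the muscle-type aldolase Aldoa and the glycerol phosphate dehydrogenase Gpd1. Slc2a2, which encodes GLUT2, had 8917, 6911, 9194, 6723 and 6706 normalised counts in HepV_O3, against 5140 to 7550 in HepV_Air, a change of 0.33 ± 0.11 (log2, SE, limma adjusted p = 0.0300). In sham-operated rats it had 6342 to 7756 in Sham_O3, against 4983 to 6030 in Sham_Air, a change of 0.35 ± 0.11 (adjusted p = 0.0152). Rescaling to equal upper quartiles gave adjusted p = 0.0692 after vagotomy and 0.05004 after sham surgery, and equal column totals gave 0.0682 after sham surgery. The call after vagotomy was also lost, at adjusted p from 0.0617 to 0.115, when HepV_O3 replicate 1 or 3 or HepV_Air replicate 1, 2 or 3 was left out, and in a fit of only the groups compared (0.0839).

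Glyctk, the glycerate kinase of a side route from glyceraldehyde, was not called in any of the 4 comparisons. Its ozone difference was 0.29 ± 0.15 (log2, SE) both after vagotomy (limma adjusted p = 0.175) and after sham surgery (adjusted p = 0.157). It had 4771 to 6144 normalised counts in the libraries low in 5.8S and 3012 to 4826 in the others. Without those libraries the ozone change of Glyctk after vagotomy was 0.40 (adjusted p = 0.00998).

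Of 6 other genes of the polyol and xylulose route, 0 rose and 1 fell with ozone after vagotomy, where 9.63% of all genes tested fell, and 0 rose and 2 fell after sham surgery, where 13.8% fell. Akr1b1, the aldose reductase that makes the sorbitol used by Sord, had an ozone difference of -0.03 ± 0.15 after vagotomy (log2, SE, limma adjusted p = 0.912) and of -0.40 ± 0.15 after sham surgery (adjusted p = 0.0449). The call after sham surgery was lost, at adjusted p from 0.0629 to 0.120, when Sham_O3 replicate 1 or 5 or Sham_Air replicate 1, 2, 4 or 5 was left out. It was also lost with no minimum count (0.0557), with edgeR on the submitters' size factors (0.0507) and in a fit of only the groups compared (0.0750). Cryl1, a gulonate dehydrogenase, fell by 0.91 in sham-operated rats (adjusted p = 0.0117). Xylb, the xylulokinase, changed by -0.39 ± 0.08 after vagotomy (adjusted p = 0.00131), with 3462 to 3762 normalised counts in HepV_O3, all below the 3918 to 5240 in HepV_Air.

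ChREBP, its partners and known targets gave 18 tested genes, of which 1 rose and 3 fell in HepV_O3 against HepV_Air, and 4 rose and 6 fell in Sham_O3 against Sham_Air. Over all genes tested 11.4% rose and 9.63% fell after vagotomy, and 14.6% rose and 13.8% fell after sham surgery, so the count after vagotomy was near the share of all genes. Mlxipl itself had 591, 556, 427, 346 and 458 normalised counts in HepV_O3, all below the 744 to 1037 in HepV_Air, and changed by -0.85 ± 0.16 (log2, SE, limma adjusted p = 0.000440). After sham surgery its change was -0.25 ± 0.16 (adjusted p = 0.259). Mlx, the partner of Mlxipl, rose with ozone by 0.81 after vagotomy and by 0.80 after sham surgery. The targets Pklr and Acly, which encode liver pyruvate kinase and ATP citrate lyase, fell by 0.90 and 0.84 after vagotomy and by 1.22 and 1.28 after sham surgery. Not all targets fell. Beside the 6 genes that fell after sham surgery, the targets G6pc and Arrdc4 rose, by 1.05 (adjusted p = 0.00242) and 0.76 (adjusted p = 0.0102). Neither was called after vagotomy (adjusted p = 0.402 and 0.0547). Tkfc was thus called lower in sham-operated rats together with Pklr and Acly, and was not called after vagotomy, where Pklr, Acly and Mlxipl were. The difference between these genes was not tested.

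The hexokinases, which phosphorylate glucose and can phosphorylate fructose weakly, made up a further list. Of 7 tested genes of hexokinases and their regulators, 1 rose and 4 fell after vagotomy, and 2 rose and 3 fell after sham surgery, where 21.1% and 28.4% of all genes were called in either direction. Hk1 had 28.8 to 45.7 normalised counts in HepV_O3, all below the 51.3 to 72.3 in HepV_Air, a change of -0.55 ± 0.15 (log2, SE, limma adjusted p = 0.00946). Hk3 had 12.98 to 39.4 in Sham_O3, all below the 42.1 to 61.5 in Sham_Air, a change of -1.31 ± 0.26 (adjusted p = 0.000630). It was also called lower after vagotomy (-0.81 ± 0.26, adjusted p = 0.0288), whereas Hk1 was not called after sham surgery (-0.20 ± 0.15, adjusted p = 0.332). Of 10 genes on the path from AMP to urate and allantoin, which fructose loading is known to drive, Uox, the urate oxidase, rose by 0.43 after vagotomy and by 0.47 after sham surgery, and Nt5e, which makes adenosine from AMP, fell by 0.41 and 0.34. The Nt5e call after sham surgery was lost, at adjusted p from 0.0511 to 0.0580, when Sham_O3 replicate 1 or 6 or Sham_Air replicate 2 was left out. Ampd2, an AMP deaminase, fell by 0.47 after sham surgery, and the other 7 genes of the path were not called in either. The calls in the path, 2 of 10 after vagotomy and 3 of 10 after sham surgery, were near the 21.1% and 28.4% of all genes called in either direction.

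Between HepV_O3 and Sham_O3, 0 of these 50 genes were called by limma, edgeR or DESeq2, where limma called 166 of all genes tested (1.34%). That count fell to between 15 and 75 when HepV_O3 replicate 2, 3, 4 or 5 or Sham_O3 replicate 1 or 2 was left out. At an unadjusted p under 0.05 there were 8 by limma and 9 by each of the others. Their median difference was 0.09, against -0.01 over all genes. Pklr, named here for its lack of overlap, had 991 to 2105 in HepV_O3 and 500 to 979 in Sham_O3, a difference of 0.63 ± 0.20 (limma adjusted p = 0.130). Every HepV_O3 value was above every Sham_O3 value in 1.18% of all genes tested. Between HepV_Air and Sham_Air 0 of the 50 were called by any of the 3 tools, with 3 genes at an unadjusted p under 0.05 by limma and 4 by each of the others. Beside these changes, the periportal hepatocyte markers were called higher with ozone, 5 of 6 after vagotomy and 6 of 6 after sham surgery, and of 6 pericentral markers 0 and 1 were, where 11.4% and 14.6% of all genes tested were called higher. The part of this in the values of the fructose genes was not tested.

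**Figure D5:**
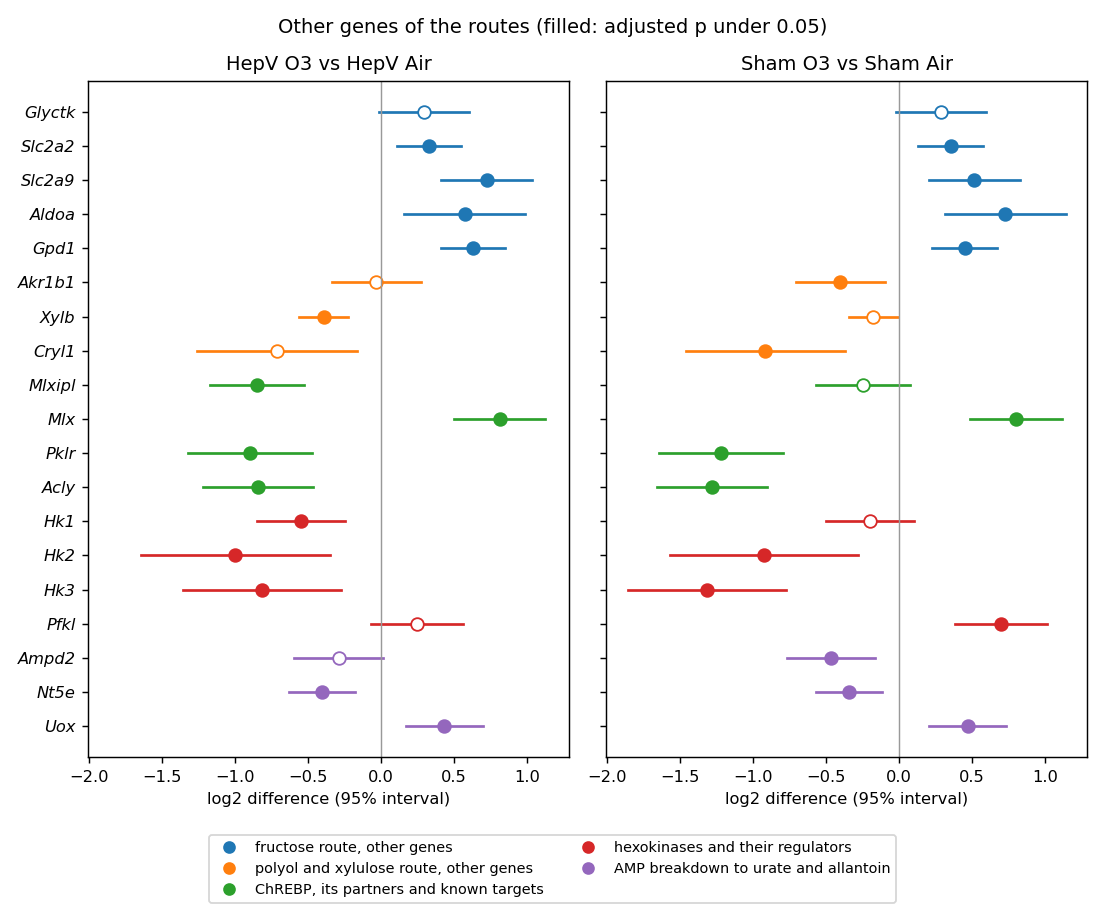
Ozone changes on the log2(count + 1) scale (horizontal axes) with 95% intervals for named genes of the 5 lists, after vagotomy (left) and after sham surgery (right); filled points passed an adjusted p under 0.05 and colours give the list. Slc2a2, Slc2a9, Aldoa and Gpd1 lie right of 0 in both panels, and Hk3 lies farthest left in the right panel, at -1.31.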

How the data were processed

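RNA from 10 to 20 mg of liver per rat was sequenced in 22 libraries. Values in the deposited table are of the kind signal: the authors' read counts of each gene after scaling by a factor of the library. STAR, Partek, DESeq and DESeq2 are named, with rat build rn6, per the submitters' processing notes, and the role of each is not given in the sources used here. In each column 100% of values were multiples of the smallest step (tolerance 0.001), and dividing by it recovered reads, 14098863 to 21141337 in each library. In 4 columns the step was close to 1. The analysis took in all 22 columns.

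Genes with a mean of at least 10 were kept, 12424 of 14971, and log2(count + 1) was fitted with limma 3.58.1 in R 4.3.3 as 4 group means over all libraries, two-sided, with Benjamini-Hochberg adjustment over all genes tested and calls at an adjusted p under 0.05. Fold changes on this scale understate changes of low genes. Each limma p-value sets a group difference against the spread between rats within groups, pooled over all 4 groups. The recovered reads, in all 22 columns, were tested with edgeR 4.0.16 (quasi-likelihood) and DESeq2 1.42.0, and edgeR with TMM factors called 182 genes between HepV_O3 and Sham_O3, against 166 by limma. On simulated data the procedure was tested with known changes placed in Sham_O3, scored in Sham_O3 against Sham_Air only. Libraries of 1 group were compared in 50 pairs, and none differed by so little as to be a copy (chi-square divided by its degrees of freedom at least 9.30).

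Alternatives planned were a pseudocount of 0.5 or 5, a minimum mean of 50 or none, columns rescaled to equal totals or upper quartiles, both count tests, a block for replicate number, a fit of the compared groups alone, and each library left out in turn. Leaving out 4 libraries with 5.8S under 200, or log2 5.8S as a covariate, was added after the data were seen. The gene set and all lists were chosen with earlier results of these data known.

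Named were the 4 genes and, per pathway list and comparison, up to 3 called genes with the smallest p, with Glyctk, Slc2a2, Akr1b1 and Mlxipl in any case. For each of the 4 genes the 3 most alike genes with a mean of at least 50 were named. Some genes that these rules name are not reported here. The neighbouring genes were chosen by position, and Gpr157 was named after its values were seen. Pklr between HepV_O3 and Sham_O3 was named for its lack of overlap. G6pc and Arrdc4 were named as targets called higher after sham surgery. Of 56 list symbols, 50 were tested, 2 were below the minimum and 1 was matched by a synonym. The other list symbols were not analysed here. Promoters of the 4 genes were matched by symbol. Plots used matplotlib 3.10.9 under Python 3.11.15.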

Additional observations from a re-analysis of the deposited data

Results flagged for a closer look

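Khk in Sham_O3 replicate 3 had 2291 normalised counts and stood apart from the other 5 Sham_O3 livers, which held 871 to 1377. Its gap to the next liver was 0.643 of the whole range of the group, above the critical value for 6 samples. Among 16 combinations of gene and group tested this was the only one, and chance gives about 1 in 20, or 0.8 of the 16. The same library had a 5.8S ribosomal RNA count of 72.6, and its Slc2a5 value, 25.4, was the lowest of its group. The part of the low 5.8S in the Khk value was not tested.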

How the results depend on the processing

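Slc2a5 and Tkfc were lower in Sham_O3 than in Sham_Air under every alternative, with adjusted p under 0.05 in each. Of the values of the 4 genes in the 3 tested comparisons, 267 kept direction and side of the threshold under an alternative, 12 reversed, 8 passed it newly and 1 no longer passed. The 96 values for HepV_O3 against Sham_O3, which carry no test, kept their direction. For Sord in Sham_O3 against Sham_Air the difference passed with equal column totals (-0.39), equal upper quartiles (-0.35), DESeq2 (-0.28), without the 4 libraries low in 5.8S (-0.31) and with log2 5.8S as a covariate (-0.29, adjusted p = 0.0469), and it was -0.36 to -0.22 when single libraries were left out. Sord in HepV_O3 against HepV_Air was -0.43 to -0.35. No call was made where signs reversed. Leaving out single libraries gave -0.017 to 0.19 for Slc2a5 in HepV_O3 against HepV_Air and -0.29 to 0.026 for Khk in Sham_O3 against Sham_Air. Between HepV_Air and Sham_Air it gave -0.081 to 0.22 for Khk and -0.089 to 0.068 for Tkfc. In that comparison the values without the 4 libraries low in 5.8S and with the covariate were -0.26 and -0.17 for Khk, -0.070 and -0.074 for Tkfc, and -0.11 and -0.071 for Glyctk.

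With the replicate number as a block, Tkfc in HepV_Air against Sham_Air was -0.043, Ddb1 there -0.022, and Akr1b1 in HepV_O3 against HepV_Air 0.0067. Same-numbered rats deviated with r from -0.317 to 0.608 over 5 pairs per comparison. These r were not set against those of differently numbered rats, so whether the numbers paired the rats cannot be told from them. The block called 164 genes in HepV_O3 against Sham_O3 where 166 were called without it. It lost the calls of Akr1b1 (adjusted p = 0.0531) and Nt5e (adjusted p = 0.0582) after sham surgery.

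Leaving out single libraries gave -0.094 to 0.064 for Akr1b1 in HepV_O3 against HepV_Air, and -0.0089 to 0.18 for Glyctk and -0.014 to 0.043 for Ddb1 in HepV_Air against Sham_Air. Akr1b1 in HepV_O3 against HepV_Air was 0.080 without the 4 libraries low in 5.8S. Of the genes tested, 1.34% were called in HepV_O3 against Sham_O3, against 2.95% with DESeq2, 2.59% with the covariate, 2.17% without the 4 libraries, 0.0162% (2 genes) with only the groups compared, and 0.121% to 1.75% (15 to 217 genes) when single libraries were left out. Equal column totals moved the median difference of all genes from -0.01 to 0.09 in HepV_O3 against Sham_O3 and from 0.01 to -0.09 in Sham_O3 against Sham_Air. The causes were not tested. Among the 4 genes depth limits Slc2a5 most, at 27 to 123 reads per library.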

Other observations

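Gpr157, a receptor gene next to Slc2a5 in the RefSeq annotation and named after its values were seen, differed from Slc2a5. It rose with ozone in both surgery groups. It averaged 41.8 ± 7.52 normalised counts in HepV_O3 (SD, n = 5) and 18.4 ± 2.14 in HepV_Air (SD, n = 6), without overlap, a change of 1.13 ± 0.26 (log2, SE, limma adjusted p = 0.00301). In sham-operated rats it averaged 30.2 ± 10.3 in Sham_O3 (SD, n = 6) and 15.7 ± 5.70 in Sham_Air (SD, n = 5), with overlap, a change of 0.92 ± 0.26 (adjusted p = 0.00963). Leaving out single libraries kept both calls, at adjusted p up to 0.0123 after vagotomy and 0.0378 after sham surgery. Cyb561a3, next to Tkfc, was called lower with ozone after sham surgery, as Tkfc was (-0.58 ± 0.12, limma adjusted p = 0.00103). It was also called lower after vagotomy (-0.42 ± 0.12, adjusted p = 0.0156), where Tkfc was not. Next to Khk, Cgref1 was called higher after vagotomy only (1.33 ± 0.46, adjusted p = 0.0427), and Emilin1 was called in neither surgery group.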
